A study of Rattus norvegicus with 12 samples.

Results

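Bdnf and Gdnf, which encode secreted survival factors for neurons, and the receptor genes Ntrk2, Ngfr, Ret, Gfra1 and Gfra2 were followed in PC12 cells treated with PACAP38. PC12 is a line from a rat adrenal pheochromocytoma, a tumour of chromaffin cells, and PACAP38 is the longer active form of pituitary adenylate cyclase-activating polypeptide. The 7 genes were chosen by name, with every probe that the array's annotation gives to them, which makes 17 of the 41012 probes measured. Cells received 1e-07 M PACAP38 for 5, 10, 15, 30, 60 or 120 min, and each time point had its own control RNA from PC12 cells of the same time, labelled as control. Before labelling, RNA of n = 6 was pooled within each group, and each PACAP38 pool was set against its control pool on 2 Agilent rat arrays with the dyes Cy3 and Cy5 exchanged. Since the second array repeats the RNA of the first, a time point counts as 1 replicate. The fold of either array is given in place of an error, and the spot p-values used in counts cover the error of spots alone and are no test between conditions. The study asked which genes change early in the outgrowth of neurites that PACAP38 induces in these cells.

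Neurotrophins such as BDNF bind receptor tyrosine kinases of the Trk family, and all of them also bind the receptor that Ngfr encodes. Ligands of the GDNF family bind a GFR alpha co-receptor on the cell surface, and the pair engages the receptor tyrosine kinase RET. Both systems feed the ERK and AKT pathways, and PC12 cells are known for the neurites they grow when neurotrophic signalling is active. Neurotrophins are made as precursors that proteases cut, and plasminogen, activated by the protease that Plat encodes, is one that cuts the precursor of BDNF.

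The probes are oligonucleotides of 60 bases. The following stretches of 30 bases come from the probes on which the results turn, with capitals for the polyadenylation signal AATAAA on the strand of the transcript. That signal stands in 2 of the 17 probes and in 4.26% of all 41012 probes. The Ret pair is shown because its folds are compared, and the Bdnf stretch for the signal it holds.
Ngfr A_44_P556989, bases 1 to 30: gagaccaggagcattgtacgcatacgcggg
Ret A_42_P602822, transcript variant 2, bases 1 to 30: tcacgaagccagtgctaaatactgagccaa
Ret A_44_P308662, transcript variant 1, bases 1 to 30: gatccatttaagaaaggctattaaaccgta
Gfra2 A_42_P791436, bases 1 to 30: ttttttaataatgttgtctatgatgggaag
Gfra1 A_43_P11634, bases 21 to 50: actcatacattgAATAAAcatattcgatgt
Gdnf A_44_P365470, bases 1 to 30: gcccgccggtaagaggcttctcgaagcgcc
Bdnf A_44_P437896, bases 31 to 60: tctgagagacgttagtcaaacaAATAAAag

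On rat build rn4, as the array annotates it, the Ngfr probe lies at chr10:84263082-84263141 on the minus strand and the Gfra2 probe at chr15:51370896-51370955 on the plus strand. The Ret probes A_42_P602822 and A_44_P308662 lie at chr4:154451073-154451132 and chr4:154448221-154448280 on the minus strand, 2852 bases apart. The other Ret probes, A_44_P153972 and A_44_P480153, lie 11792 and 20214 bases upstream of the last Ret probe, counted along the transcript's strand. The Gfra1 probe A_43_P11634 lies at chr1:264614326-264614385 on the minus strand, the Gdnf probe A_44_P365470 at chr2:57403890-57403949 on the plus strand and the Bdnf probe A_44_P437896 at chr3_random:979381-979440 on the plus strand. Whether a probe lies in a coding exon or in the untranslated part was not analysed here.

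On each array 38.4 to 49.6% of the spots were well above background in either RNA, and the number of arrays limits the precision. All 7 chromaffin markers measured (Th, Dbh, Ddc, Slc18a1, Chga, Chgb and Phox2a) were well above background in the control RNA on all 12 arrays. Of the markers of other cells, 2 of 5 fibroblast genes (Col1a1 and Pdgfra) and 1 of 5 macrophage genes (Cd68) were, while the glial genes Sox10 and S100b and the macrophage genes Ptprc and Aif1 were so in the control RNA on 0 arrays. None of the 22 marker genes was counted as changed at any time point.

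The receptor genes Ngfr, Ret and Gfra2 were expressed in PC12 cells, and Bdnf was not detected. In either RNA 4 probes (Ngfr, 2 of Ret and Gfra2) were well above background on all 12 arrays, and 7 of the 17 probes (both Bdnf, 3 of 5 Ntrk2, 1 of 2 Gfra1 and 1 of 2 Gdnf probes) on 0 arrays. The 6 probes left (2 of Ntrk2, 2 of Ret, 1 of Gfra1 and 1 of Gdnf) were dim and passed in some channels. None of the 17 probes was counted as higher or lower at any time point, where a count needs the dye-swapped arrays to show the same direction, each with a fold past 2 or 0.5 and a spot p-value under 0.01. Over all probes this rule counted 0.0% at 5 min and 0.0659, 0.117, 0.351, 1.25 and 3.48% at the later time points in order, so a count of 0 among 17 probes is near the background. In pooled RNA, fewer cells with a transcript and less of it per cell cannot be told apart.

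**Figure D1:**
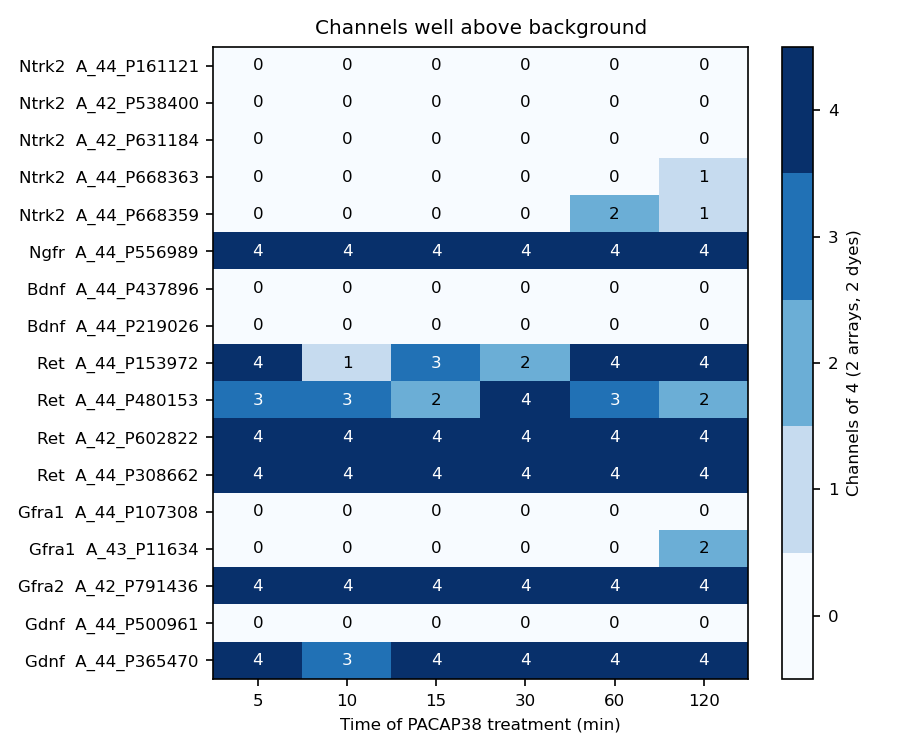
For each of the 17 probes (rows) and each time of PACAP38 treatment in min (columns), the number of channels, of 4 on the 2 dye-swapped arrays, in which the probe was well above background. The probes of Ngfr and Gfra2 and 2 of the Ret probes stand at 4 throughout, while Gfra1 A_43_P11634 leaves 0 only at 120 min.

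Ngfr, the receptor that binds all neurotrophins, stayed near the control level. Its control signal was between 11400 and 18480 over the 12 arrays, with a median of 14150, and its PACAP38 signal between 11930 and 17570, with a median of 13390. The readings of both RNAs overlapped. With PACAP38 in Cy5 the folds from 5 to 120 min were 0.933, 0.945, 0.987, 1.24, 1.18 and 1.02, and with PACAP38 in Cy3 they were 1.02, 0.777, 0.898, 0.885, 0.986 and 0.689. Both arrays lay below 1 at 10 and 15 min and on opposite sides of 1 at the other 4 time points. The Ngfr probe is spotted 10 times, and the SD of its log2 fold over the 7 to 10 spots of an array used was 0.0171 to 0.0424, while its arrays of 1 time point differed by 0.14 to 0.56. Over the 14928 to 17143 probes well above background in all 4 channels, the median difference between the arrays was 0.17 to 0.25 per time point. The difference between dye orientations was therefore larger for Ngfr than the spread of its spots at every time point. With limma's fit over 20203 probes its log2 fold changed by -0.0024 per doubling of time (95% interval -0.11 to 0.10, adjusted p = 0.976), which from 5 to 120 min leaves room for a fold of 0.715 to 1.38.

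Ret, the kinase through which GDNF ligands signal, was read by both bright probes with small folds. On A_42_P602822, annotated to transcript variant 2, the control signal was between 2603 and 4735 with a median of 3328, and the PACAP38 signal between 2838 and 5740 with a median of 3332. Its folds from 5 to 120 min were 1.04, 0.872, 1.07, 1.14, 1.21 and 1.21 with PACAP38 in Cy5, and 1.03, 0.899, 1.03, 1.11, 1.21 and 1.25 with PACAP38 in Cy3. At 10 min both arrays were below 1, and at the other 5 time points both were above it. The arrays of a time point differed by at most 0.057 on the log2 scale. At 60 min the PACAP38 signals of 4475 and 4616 lay above the control signals of 3709 and 3814, and at 120 min 5740 and 5174 lay above 4735 and 4143. The slope of the log2 fold was 0.083 per doubling of time (95% interval 0.0013 to 0.16), with a limma adjusted p of 0.170 that missed the threshold of 0.05. With normexp and median centring the slope was 0.0028 (adjusted p = 0.967) and the fold at 120 min 1.01.

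A_44_P308662, annotated to transcript variant 1 of Ret, read lower folds at 120 min. Its control signal was between 2688 and 4962 with a median of 3400, and its PACAP38 signal between 2689 and 5053 with a median of 3609. The folds from 5 to 120 min were 1.24, 0.912, 0.979, 1.16, 1.23 and 1.02 with PACAP38 in Cy5, and 0.870, 0.761, 0.886, 1.1, 1.05 and 0.936 with PACAP38 in Cy3. Both arrays lay below 1 at 10 and 15 min and above 1 at 30 and 60 min. As at the probe of variant 2, the lowest mean fold (0.833) stood at 10 min. At 120 min the mean fold was 0.976 here and 1.23 at the probe of variant 2, and whether the variants differ was not tested, since 1 pool per time point gives no replicate error. The slope was 0.034 (95% interval -0.076 to 0.14, adjusted p = 0.645).

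The Ret probes farther upstream were dim. A_44_P153972, annotated to a transcript named Ret9, had control signals from 11.1 to 107.6 with a median of 62.8, and PACAP38 signals from 27.6 to 135.8 with a median of 60.5. At 120 min its folds were 1.42 and 1.47 with PACAP38 in Cy5 and in Cy3, and at the other 5 time points the fold was below 1 with PACAP38 in Cy5 and above 1 with PACAP38 in Cy3. A_44_P480153, annotated to both variants, had folds of 1.66 and 1.24 at 30 min, and at the other 5 time points 1.02 to 2.49 with PACAP38 in Cy5 against 0.581 to 0.959 with PACAP38 in Cy3. At those time points the direction of both probes turned with the dye. Since an RNA was above background on fewer than 2 arrays at 3 time points of A_44_P153972 and at 5 of A_44_P480153, the folds there are not exact. Their slopes were 0.12 (adjusted p = 0.232) and 0.17 (adjusted p = 0.128, limma).

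Gfra2, the co-receptor that prefers neurturin, had its highest fold at 10 min and its lowest at 120 min. Its control signal was between 1070 and 2301 with a median of 1340, and its PACAP38 signal between 1177 and 1852 with a median of 1440. The folds from 5 to 120 min were 0.957, 1.18, 0.964, 0.917, 0.910 and 0.804 with PACAP38 in Cy5, and 1.1, 1.31, 1.04, 1.02, 1.01 and 0.983 with PACAP38 in Cy3. At 10 min the PACAP38 signals of 1307 and 1398 lay above the control signals of 1111 and 1070, and at 120 min 1850 and 1852 lay below 2301 and 1884. Elsewhere the arrays lay on opposite sides of 1. The slope was -0.067 per doubling of time (95% interval -0.15 to 0.020, adjusted p = 0.265), which allows a fold from 5 to 120 min of 0.612 to 1.07.

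**Figure D2:**
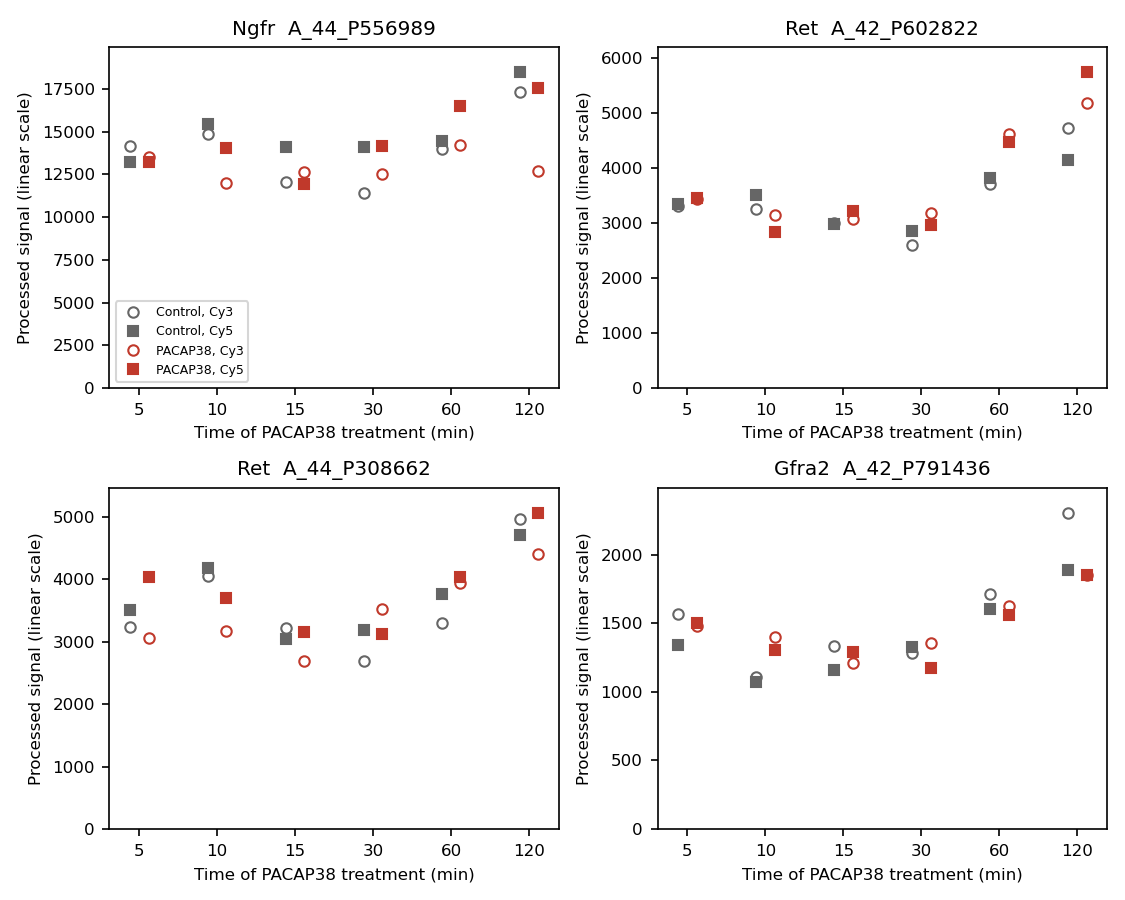
Processed signal (linear scale from 0) against time of PACAP38 treatment in min for the 4 probes that were well above background throughout, with control RNA in grey, PACAP38 RNA in red, Cy3 as open circles and Cy5 as filled squares, 1 point per array and RNA. For Ret A_42_P602822 both red points lie above both grey points at 60 and 120 min, while the points of Ngfr are mixed at most time points.

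Gfra1, the co-receptor that prefers GDNF, was detected only at 120 min and only in PACAP38 RNA, on 1 of its 2 probes. On A_43_P11634 the PACAP38 signals at 120 min were 57.0 in Cy5 and 61.9 in Cy3, and the control signals on the same arrays were 18.6 and 15.2. Over the 12 arrays its control signals ran from 4.99 to 21.0 with a median of 9.06, and its PACAP38 signals from 5.95 to 61.9 with a median of 13.1. PACAP38 RNA was well above background on both arrays of 120 min and control RNA on neither. From the processed signals this gave a lower bound of 2.03-fold for this probe, in 1 pair of pools and under that background treatment alone. This bound sets the mean signal of PACAP38 RNA against the higher of the control's own signal and the lowest signal of that channel that was well above background. The spot p-value was 0.000948 with PACAP38 in Cy3 but 0.0175 in the other orientation, which missed the limit, so the probe was not counted. With normexp background correction and an offset of 50, which is as large as these signals, its fold was 1.11. The probe entered the fits over time through PACAP38 RNA of 120 min alone, and both RNAs were at background at the other 5 time points, so that its slope on log2 time, 0.26, is a description without a test, and it was -0.034 without 120 min. It was called with time in minutes, in a fit that called 26.4% of the 20203 probes, but this rests on the reading that let it enter. The second Gfra1 probe, A_44_P107308, lies 2078 bases upstream, spans 802 bases of the genome and was well above background in 0 channels, with signals of 4.54 to 18.3.

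Ntrk2, which encodes the BDNF receptor TrkB, was at background in the control RNA but for 1 reading. The probes A_42_P538400 (10 spots), A_42_P631184 and A_44_P161121 had signals of 4.76 to 10.1, 4.15 to 9.25 and 4.36 to 17.9 and were well above background on 0 arrays in either RNA. Like the undetected A_42_P631184, the probes A_44_P668363 and A_44_P668359 are annotated to transcript variant 2. The latter probes each passed in PACAP38 RNA on 1 array of 120 min. For A_44_P668363 the PACAP38 signals there were 111.9 in Cy5 and 40.1 in Cy3 against control signals of 49.7 and 8.98. From 5 to 60 min neither RNA of this probe was above background, and the PACAP38 signal was the lower one on every array with PACAP38 in Cy5 and the higher one on every array with PACAP38 in Cy3. For A_44_P668359 the signals at 120 min were 87.3 and 57.4 against 15.5 and 39.8. The control was above background on 0 arrays of that time for either probe, and no fold is read from them. At 60 min the arrays of A_44_P668359 opposed each other, with PACAP38 signals of 33.6 in Cy5 and 12.4 in Cy3 against control signals of 7.72 and 31.4, and either RNA was above background on only 1 of the 2 arrays, so that no fold is read there. Only A_44_P668359 entered the fit over time, through those opposed arrays of 60 min, and both its RNAs were at background at 4 of the 6 time points, so no slope is read from it.

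Among the ligands, neither Bdnf nor the probe of Gdnf with 10 spots was detected. Bdnf signals were 4.43 to 10.1 on A_44_P437896 and 4.36 to 10.6 on A_44_P219026. None of the 111 spot readings of A_44_P437896, and none of the 118 of Gdnf A_44_P500961, was well above background in either RNA. The other Gdnf probe, A_44_P365470, was dim, with control signals of 29.3 to 98.7 and a median of 49.8, and PACAP38 signals of 33.7 to 73.6 with a median of 42.1. It has a GC content of 73.3%, the highest of the 17 probes, and lies 19955 bases upstream of the other. Its folds from 5 to 120 min were 0.935, 1.33, 0.604, 1.52, 0.690 and 1.06 with PACAP38 in Cy5, and 0.837, 0.753, 0.758, 0.992, 0.699 and 0.746 with PACAP38 in Cy3. Both arrays were below 1 at 5, 15 and 60 min, and the spot p-values at 60 min were 0.05 and 0.0497. With normexp and loess the folds at 15 and 60 min were 0.933 and 0.935. The slope was -0.017 (95% interval -0.21 to 0.18, adjusted p = 0.903), which leaves room for a fold of 0.508 to 1.77 from 5 to 120 min.

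**Figure D3:**
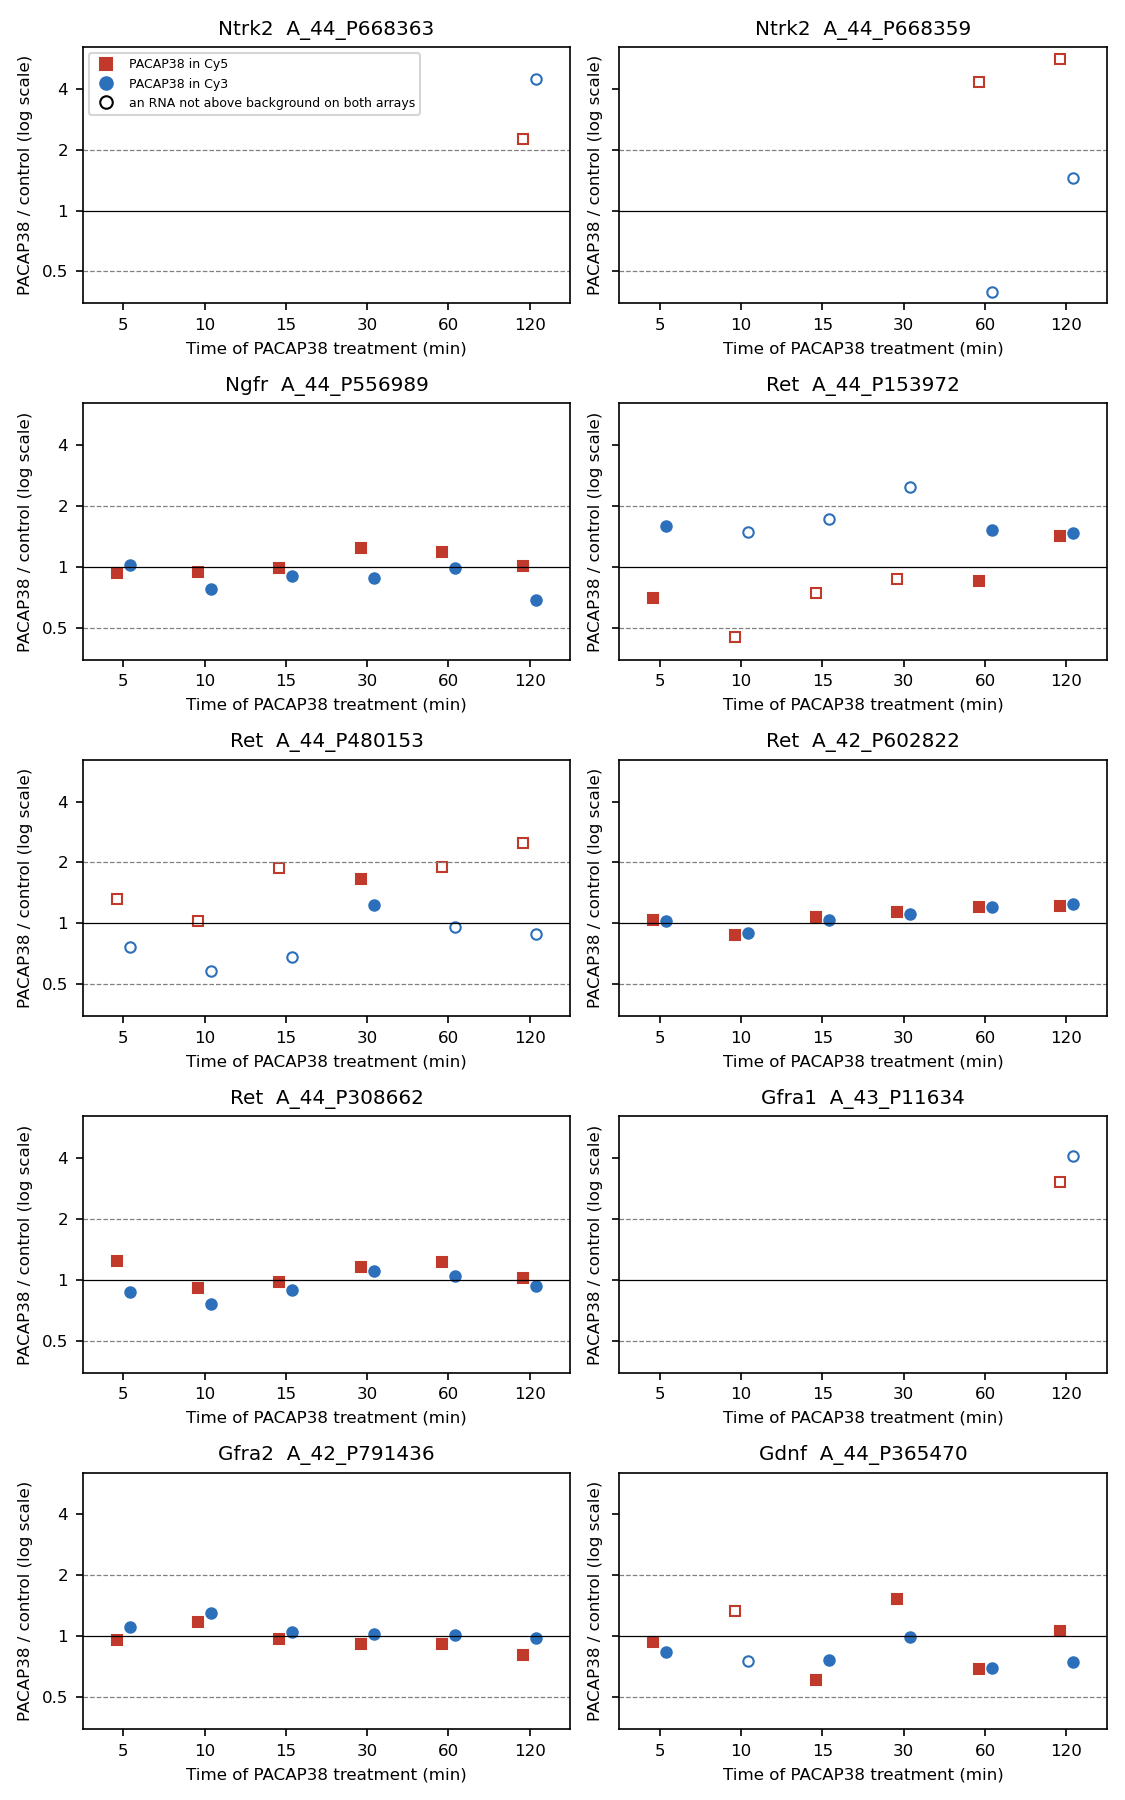
Fold of PACAP38 over control (log scale) against time of treatment in min for the 10 probes that were well above background in some channel, with red squares for PACAP38 in Cy5 and blue circles for PACAP38 in Cy3, and dashed lines at 2 and 0.5. Open symbols mark time points at which an RNA was well above background on fewer than 2 arrays, where a point is no exact fold, and time points with neither RNA above background are left out; for Ret A_44_P480153 the red and blue points lie apart at all 6 time points.

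Across time, 9 of the 17 probes entered limma's fit of the log2 fold on log2 time, and 0 of them passed an adjusted p of 0.05 (Gfra1 and Ntrk2 entered through 1 time point each), while 147 of the 20203 probes tested did (0.728%). Unadjusted p-values below 0.05 were found for 2 of the 9, Ret A_44_P480153 (0.0251) and Ret A_42_P602822 (0.0474), and for 5805 of all probes. Each slide held 2 neighbouring time points, and with slide as a block no probe of the array passed. In that fit the slope of Ret A_42_P602822 was -0.034 (95% interval -0.35 to 0.28). Within slides, its mean fold went from 1.03 at 5 min to 0.886 at 10 min, from 1.05 at 15 min to 1.13 at 30 min, and from 1.21 at 60 min to 1.23 at 120 min. Between slides, slide and time cannot be told apart.

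**Figure D4:**
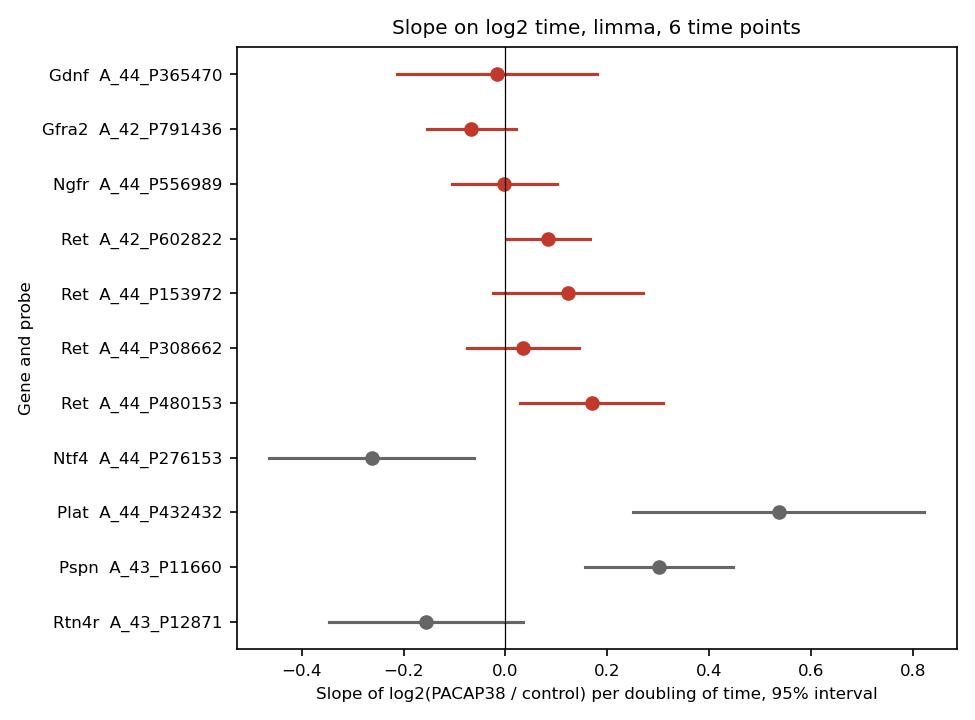
Slope of log2(PACAP38 over control) per doubling of time from limma over 6 time points, with its 95% interval, for the 7 probes of Ret, Gfra2, Ngfr and Gdnf in the fit (red) and for the counted genes of the pathway (grey). The probes of Gfra1 and Ntrk2, at background at most time points, are not plotted, and the intervals of Ngfr and Gfra2 lie between -0.15 and 0.10.

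In the control RNA the receptor genes Ngfr, Ret and Gfra2 were detected in each of the 6 pools. On the log2 scale, relative to the 75th percentile of each channel and averaged over both dyes, the SD over the control pools (n = 6) was 0.199 for Ngfr, 0.139 and 0.224 for Ret A_42_P602822 and A_44_P308662, and 0.116 for Gfra2. The control level of Ngfr changed by -0.097 per doubling of time (adjusted p = 0.251) and that of Ret A_42_P602822 by -0.071 (adjusted p = 0.283). No probe of the array passed this test (0.0% of 20203), although 3576 had an unadjusted p below 0.05.

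The remaining ligands, receptors, co-receptors, adaptors and processing enzymes of both systems made a list of 42 genes on the array, with 65 probes. Of these genes 25 were well above background in the control RNA on all 12 arrays, and 13 in neither RNA on any array. Up to 30 min 0 of the 65 probes were counted, at 60 min 2 (3.08%) and at 120 min 4 (6.15%), beside 1.25 and 3.48% of all probes. By role, the genes counted at 120 min were 2 of 7 ligands, 0 of 8 receptors, 1 of 5 co-receptors, 0 of 18 adaptors and 1 of 4 processing enzymes. Never above background in either RNA were 2 of these ligands, 6 of the receptors, 0 of the co-receptors, 4 of the adaptors and 1 of the processing enzymes. The count of 0 for receptors therefore rests mostly on genes that were not detected. The median log2 fold of the list, over the brightest probes of the 27 and 26 genes above background there, was -0.004 at 60 min and -0.076 at 120 min, beside -0.021 and -0.027 for all probes measured.

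Among the ligands, Pspn, which encodes the GDNF family ligand persephin, was higher and Ntf4, which encodes the TrkB ligand neurotrophin 4, was lower. Pspn signals at 60 min were 450.1 and 423.0 in PACAP38 RNA against 218.1 and 191.0 in control RNA, a fold of 2.06 and 2.21. At 120 min they were 691.9 and 616.2 against 299.0 and 238.7, a fold of 2.31 and 2.58. Higher at those times were 0.871 and 1.95% of all probes. Ntf4 signals at 120 min were 138.3 and 99.8 against 290.4 and 333.4, a fold of 0.476 and 0.299, and lower at that time were 1.53% of all probes. Up to 60 min the arrays of Ntf4 gave folds of 0.760 to 1.27. With normexp and loess the mean folds at 120 min were 1.68 for Pspn and 0.722 for Ntf4, which is inside the limits of 2 and 0.5, so that neither was counted.

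Plat, the tissue plasminogen activator, had the highest fold of the 4 counted genes. Its signals at 120 min were 1954 and 2044 in PACAP38 RNA against 316.4 and 401.6 in control RNA, a fold of 6.18 and 5.09, after 2.84 and 2.66 at 60 min. With normexp and loess the means were 3.26 and 1.97. Rtn4r, the Nogo receptor, which forms a complex with the Ngfr product, was lower at 120 min, with 382.1 and 313.6 against 769.5 and 679.2, a fold of 0.497 and 0.462, and 0.670 with normexp and loess. On log2 time, Pspn had a slope of 0.30 (adjusted p = 0.0739), Plat of 0.54 (adjusted p = 0.0785), Ntf4 of -0.26 (adjusted p = 0.114) and Rtn4r of -0.16 (adjusted p = 0.239), which missed the threshold. With time in minutes, a fit that called 26.4% of the probes, limma's adjusted p-values were 0.0122, 0.00295, 0.00534 and 0.0316 in that order. As 60 and 120 min against 5 to 30 min, a fit that called 2.92% of the 20203 probes, the adjusted p-values of Pspn and Plat were 0.0348 and 0.0333 and those of Ntf4 and Rtn4r 0.165 and 0.272, but 60 and 120 min lay on 1 slide, so this contrast cannot be told apart from the slide. With slide as a block the adjusted p-values of the slope of Pspn and Plat on log2 time were 0.894 and 0.901, and without a filter on dim probes 0.146 and 0.153. Over the 15880 probes well above background at all 6 time points, of which 3.41% were called, Pspn had an adjusted p of 0.0491 and Plat of 0.0538.

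**Figure D5:**
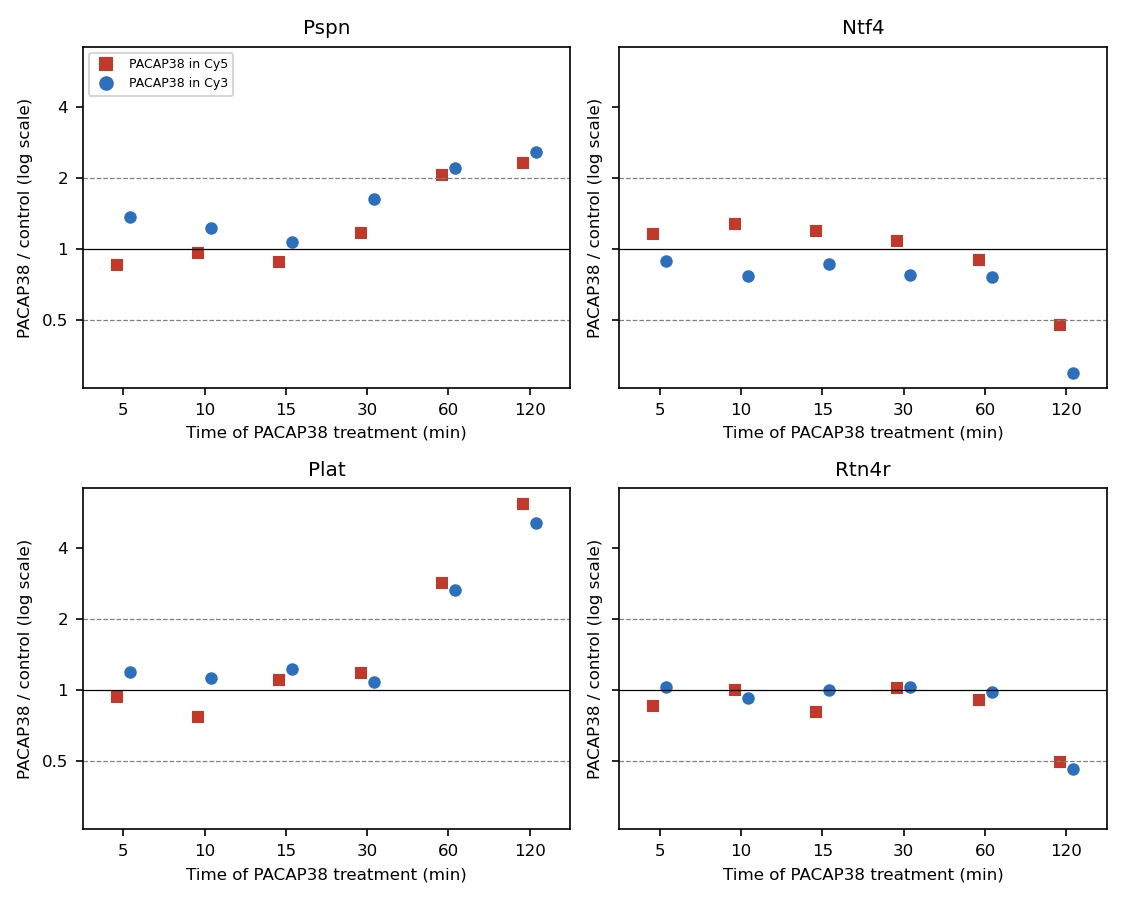
Fold of PACAP38 over control (log scale) against time in min for the 4 pathway genes counted at any time point, with red squares for PACAP38 in Cy5, blue circles for PACAP38 in Cy3 and dashed lines at 2 and 0.5. Pspn and Plat lie above 2 on both arrays at 60 and 120 min, and Ntf4 and Rtn4r below 0.5 on both arrays at 120 min alone.

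Ntf3, which encodes neurotrophin 3, and Ntrk3, which encodes its receptor TrkC, were not detected. Both were well above background in 0 channels, with median control signals of 10.9 and 5.61.

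RefSeq's promoters, from 250 bases before to 50 after the start on the rat assembly GRCr8, were found for 4 of the 7 genes. The cAMP response element TGACGTCA, the AP-1 site TGACTCA and the EGR site (GCGTGGGCG or GCGGGGGCG), on either strand, stood in 0 of the 4, and in 1.83, 4.63 and 3.20% of all 33469 promoters. The response element's half-site TGACG, which lies inside the full element, stood in those of Bdnf and Gdnf and in 21.2% of all promoters.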

How the data were processed

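The authors hybridized pooled RNA of PC12 cells to 12 two-colour arrays on 3 slides and extracted signals with Feature Extraction, version 12.0.3.1 per the file headers and 11.0.1.1 per the submitters' processing notes. The deposited processed intensities are background-subtracted and dye-normalized by LOWESS by the authors' software, and the deposited log10 ratios of Cy5 over Cy3 and their p-values come from the same software. The deposited table of log10 ratios matched these intensities and served as an alternative.

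From the processed intensities the log2 ratio of PACAP38 over control was taken for each spot, turned by dye. Left out were control spots and, per array, 197 to 267 outlier spots. Repeated spots were averaged, as were the log2 ratios of a dye swap for the mean fold. A probe with repeated spots was well above background where at least 50% of its spots were. Bounds used Aquantile-normalized channels. Slopes on log2 time were fitted with limma 3.58.1 (R 4.3.3) to the probes well above background in a channel of both arrays at 1 time point or more, with Benjamini-Hochberg adjustment over all 20203. On simulated data 91.5% of 200 probes with a slope of 0.8 were recovered and 3.2% of the calls were false. That slope is above the largest one on log2 time reported here, 0.54 for Plat. The simulated noise held no slide effect, and the recovery of smaller slopes was not simulated. Other steps used Python 3.11.15, pandas 2.3.3, numpy 2.4.6 and matplotlib 3.10.9.

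The genes named are the 7 chosen ones on all probes, those of the pathway list that were counted, and Ntrk3 and Ntf3 as close relatives, with some items not reported here. These genes and lists were chosen with earlier results of these data known. Alternatives were 1 dye orientation alone, other limits, normexp (offset 50) with loess or median centring, the deposited table, filters on dim probes, other time scales, other scalings of the control level, leaving out single time points, and slide as a block. Nothing says that the pools of different time points came from separate cultures, so limma's p-values measure the scatter of these pools about the fitted trend. With 1 value per time point, that scatter also holds any departure of the response from the trend. The proteome of the study was not analysed here.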

Additional observations from a re-analysis of the deposited data

Results flagged for a closer look

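For 3 probes both arrays lay above 1 at one time point and both below 1 at another, and the difference was not tested. For Ret A_42_P602822 the mean log2 fold differed by 0.47 between 120 min (fold 1.23) and 10 min (fold 0.886), for Ret A_44_P308662 by 0.45 between 60 min (fold 1.13) and 10 min (fold 0.833), and for Gfra2 A_42_P791436 by 0.48 between 10 min (fold 1.24) and 120 min (fold 0.889). In each case the time points lay on different slides. With normexp and median centring the mean folds of Ret A_42_P602822 were 1.01 at 120 min and 0.949 at 10 min, those of Ret A_44_P308662 were 1.16 at 60 min and 0.924 at 10 min, and those of Gfra2 A_42_P791436 were 1.3 at 10 min and 0.745 at 120 min.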

How the results depend on the processing

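None of the 17 probes was counted with a fold limit of 1.5, with normexp and loess or median centring, with the deposited table or with a filter on dim probes. With PACAP38 in Cy3 alone 1 probe (Ntrk2 A_44_P668363) was counted at 5 min and 1 (Gfra1 A_43_P11634) at 120 min. With PACAP38 in Cy5 alone 1 (Ret A_44_P153972) was counted at 10 min and 3 (Ret A_44_P480153, Ntrk2 A_44_P668363 and A_44_P668359) at 120 min, and without the p-value limit 2 (Gfra1 A_43_P11634 and Ntrk2 A_44_P668363) at 120 min. The share of all probes counted under these looser rules is not given here, so these counts cannot be read against a background. With time in minutes 1 probe (Gfra1 A_43_P11634) was called on the slope, which rests on the PACAP38 reading of 120 min that let it enter the fit, and 0 were under the other settings, which called 590 probes as 60 and 120 min against 5 to 30 min, 542 of 15880 above background throughout, 29 with normexp and loess, 1 with median centring, 3 and 29 with PACAP38 in Cy5 and in Cy3 alone, and 0 without a filter or with the slide block, beside 147 in the fit reported and 5335 with time in minutes. Leaving out 1 time point gave 0 to 153 calls over all probes, with 153 without 5 min, 1 without 60 min and 0 without any other. For the control level 0 probes of the 7 genes passed under any setting, and over all probes 5 passed with slide as a block and 0 otherwise.

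With slide as a block the sign of the slope turned for Ret A_42_P602822 (-0.034), Ret A_44_P308662 (-0.085), Gfra2 A_42_P791436 (0.036) and Gdnf A_44_P365470 (0.47). It turned also with median centring for Ret A_44_P308662 (-0.045), with normexp and loess for Gdnf A_44_P365470 (0.0019), with PACAP38 in Cy3 alone for Ret A_44_P153972 (-0.0059) and with PACAP38 in Cy5 alone for Ngfr A_44_P556989 (0.058). When single time points were left out, slopes ranged from -0.034 to 0.42 for Gfra1 A_43_P11634 (the lowest without 120 min), -0.22 to 0.012 for Rtn4r (the highest without 120 min), -0.041 to 0.025 for Gdnf A_44_P365470 and -0.027 to 0.064 for Ngfr. The slope of Ret A_44_P308662 moved from 0.034 to 0.0081 without 10 min, 0.016 without 60 min, 0.075 without 5 min and 0.078 without 120 min, that of Gfra2 A_42_P791436 from -0.067 to -0.106 without 5 min and -0.042 without 10 min, that of Plat from 0.54 to 0.35 and that of Ntf4 from -0.26 to -0.083 without 120 min. The cause of these changes was not tested. Every log2 ratio pairs a PACAP38 pool with its own control pool on 1 array, and the labels give no replicate numbers for a further block across time points. Of the 42 measured folds of the 7 genes, 2 changed sign with normexp and loess, 8 with median centring, 10 with PACAP38 in Cy5 alone, 12 with PACAP38 in Cy3 alone and 0 with the deposited table. Signals near background, as for Gfra1, Ntrk2 and Gdnf, limit what these arrays can show.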
